A study of Mus musculus with 1279 samples.

Results

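Oxidative phosphorylation subunits were followed through 1279 single fibroblasts and mural cells of the mouse heart. Members were the protein-coding genes named after subunits of complexes I to V together with the 13 protein genes of mitochondrial DNA. The rule for membership was the gene symbol alone. Of 46517 genes counted, 97 were members, 84 of them nuclear and 13 mitochondrial. The nuclear genes comprised 35 of complex I, 4 of complex II, 8 of complex III, 20 of complex IV and 17 of complex V. Of the mitochondrial genes, 7 belong to complex I, 1 to complex III, 3 to complex IV and 2 to complex V. Ndufa4 and its relative Ndufa4l2 were counted with complex IV, and Ndufab1 was not matched by the symbols. Cox7a2l, which helps respiratory complexes to assemble into larger ones, and Atp5s, a coupling factor, fell under the rule although neither is a subunit proper.

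The respiratory chain sits in the inner mitochondrial membrane. Complexes I and II pass electrons from NADH and succinate to coenzyme Q, complex III hands them to cytochrome c, and complex IV transfers them to oxygen. The protons pumped on the way drive complex V, the ATP synthase. The mitochondrial genome encodes a few core subunits, and all others are nuclear. Some complex IV subunits exist in alternative forms, among them heart and skeletal muscle forms (Cox6a2, Cox7a1, Cox8b) and Cox4i2, an alternative to Cox4i1 known from lung and from cells that sense low oxygen. Ndufa4 was first described in complex I and is now known as a complex IV subunit, and Ndufa4l2 is known to be induced by hypoxia in several cell types.

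Cells came from adult male mice of 10 to 20 weeks and were sorted as CD31-negative singlets into plates, lysed and sequenced with Smart-seq2. There were 581 cells of C57BL6, sorted with antibodies against PDGFRα or PDGFRβ, 364 of PdgfrbGFP, and the rest of Cspg4dsRED and Acta2GFP. The last 3 carried fluorescent reporters driven by Pdgfrb, Cspg4 and Acta2 sequences, all bred into C57Bl6/J. For Acta2GFP hearts the digestion also contained elastase. The authors grouped the cells into clusters 1 to 8, from the same counts, of which clusters 1 to 5 (926 cells) are fibroblasts, with cluster 1 likely valve interstitial cells, and clusters 6 to 8 (353 cells) were taken as mural cells, the contractile or supporting cells of vessel walls. Cluster 6 was taken as smooth muscle of large vessels, cluster 7 as vascular smooth muscle and cluster 8 as pericytes. Each strain stood for 1 replicate, and strain, sort and plate cannot be told apart, since PdgfrbGFP, Cspg4dsRED and Acta2GFP filled 1 plate each. The labels name no animal.

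Depth and markers were as follows. Each cell held between 46268 and 1302397 gene counts (median 274504), with cluster medians from 167873 (cluster 8) to 349816 (cluster 4). The 5 fibroblast markers summed to between 11069 and 13700 CPM (counts of a gene per 1000000 gene counts) in the fibroblasts of the 4 strains and to between 1289 and 2536 in the mural cells, in which the 3 cluster 6 cells of C57BL6 reached 12491. The 4 smooth muscle markers summed to 9946 to 15717 CPM in clusters 6 and 7 and to 201.1 to 4033 in cluster 8, and the 4 pericyte markers to 6942 to 23596 in cluster 8 and 2486 to 8974 in cluster 7, highest there in PdgfrbGFP. Other cell types were low, with endothelial markers at 44 to 800 CPM and immune markers at 0 to 184.5 over all sums of 3 cells or more. Cardiac muscle, whose mitochondria are abundant, is taken up in a paragraph of its own below.

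The results turn on 2 pairs of related genes, so their sequences are shown first. Ndufa4 lies on chr6:11900292-11907497 (minus strand) and Ndufa4l2 on chr10:127514967-127517154 (plus strand) of GRCm38. Their coding sequences in the GENCODE M21 annotation, aligned end to end, are identical in 65.7% of columns. Capitals mark the 50 bases, the length of a read, over which they resemble each other most, where 45 of 50 bases are the same.
Ndufa4: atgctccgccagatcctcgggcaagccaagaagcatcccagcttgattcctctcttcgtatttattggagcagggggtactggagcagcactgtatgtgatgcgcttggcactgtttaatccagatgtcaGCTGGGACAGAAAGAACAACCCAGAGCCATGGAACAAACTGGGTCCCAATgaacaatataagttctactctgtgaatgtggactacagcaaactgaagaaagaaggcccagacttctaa
Ndufa4l2: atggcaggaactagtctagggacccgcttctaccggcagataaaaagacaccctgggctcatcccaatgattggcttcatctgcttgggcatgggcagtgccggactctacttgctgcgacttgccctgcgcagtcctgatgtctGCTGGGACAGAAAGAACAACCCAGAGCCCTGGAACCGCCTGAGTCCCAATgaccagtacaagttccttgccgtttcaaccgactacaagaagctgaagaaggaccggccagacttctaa
None of the 50-base windows of either gene occurs in a transcript annotated to another gene, so a read without errors falls to 1 of them only.

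Cox4i1 on chr8:120668222-120674207 and Cox4i2 on chr2:152754173-152765037, both on the plus strand, have coding sequences of 510 and 519 bases that are identical in 66.3% of 537 aligned columns. Their most similar 50-base stretches share 40 bases, and capitals mark the 10 that differ.
Cox4i1: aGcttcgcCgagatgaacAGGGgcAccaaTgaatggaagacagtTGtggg
Cox4i2: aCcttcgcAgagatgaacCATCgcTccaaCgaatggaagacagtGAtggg
Cox4i2 likewise shares no window with another gene, and Cox4i1 shares 0.415% with genes elsewhere and 6.23% with a gene that overlaps it.

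The nuclear set made up a larger share of the transcriptome in mural cells than in fibroblasts. Summed over the 84 genes, fibroblasts held 14265 (C57BL6), 12607 (PdgfrbGFP), 10817 (Cspg4dsRED) and 10714 CPM (Acta2GFP). Mural cells of the same strains held 23901, 25710, 19385 and 20792 CPM. The groups did not overlap, and within strain the log2 ratio of fibroblasts to mural cells was −0.89 ± 0.13 (SD, n = 4 strains). Without Cox4i2 and Ndufa4l2, the members with the largest differences, the set still held 10479 to 13940 CPM in fibroblasts and 18426 to 21600 in mural cells.

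**Figure D1:**
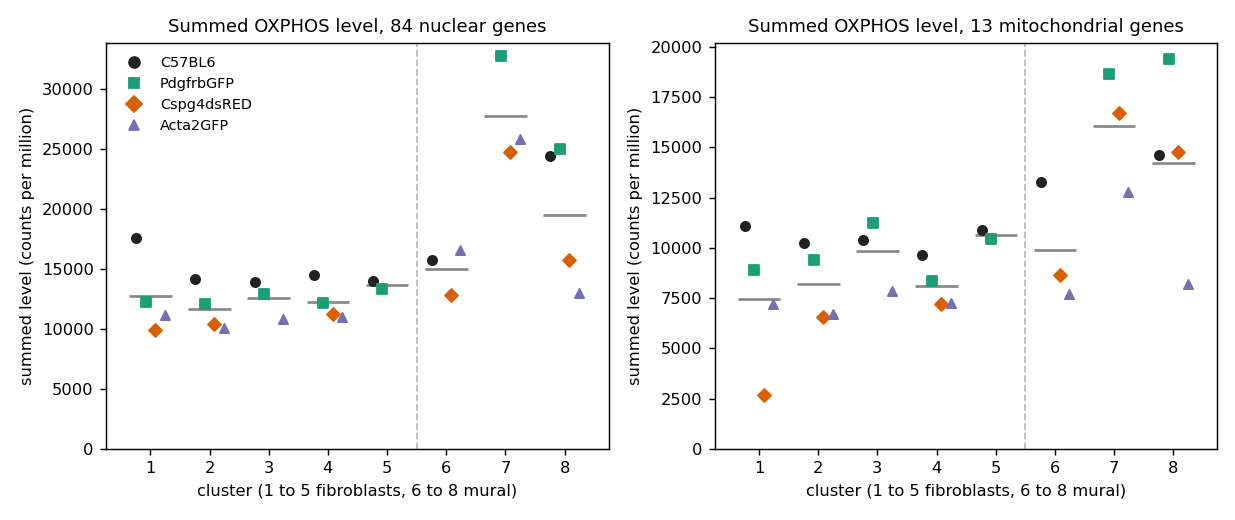
Summed level of the 84 nuclear and of the 13 mitochondrial genes in CPM, for each cluster (horizontal axis) and strain (symbols), where a strain had 3 cells or more, with a grey bar at the mean over strains. Cluster 7 has the highest nuclear level, between 24729 and 32694, and cluster 6 lies near the fibroblasts.

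By mural cluster, the summed levels were as follows. In cluster 7 the nuclear set summed to 32694 CPM in PdgfrbGFP, 24729 in Cspg4dsRED and 25808 in Acta2GFP. Cluster 8 held 24943, 15749 and 13011 CPM in these strains and 24368 in C57BL6. Cluster 6 held 15709 (C57BL6), 12772 (Cspg4dsRED) and 16542 CPM (Acta2GFP), a range that overlapped that of the fibroblasts. Within strain it was above the fibroblasts in 3 of 3 strains, by 0.14, 0.24 and 0.63 on the log2 scale. The sums of the 5 fibroblast clusters ran from 9888 (Cspg4dsRED) to 17526 CPM (C57BL6), both in cluster 1, and C57BL6 was the highest strain in each of the 5.

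These levels are shares of all gene counts. Mural cells gave fewer gene counts per ERCC spike-in count than fibroblasts, by 0.41 to 1.24 on the log2 scale in the 4 strains. Per spike-in count the difference of the nuclear set was −0.13 ± 0.32 (SD, n = 4 strains) and had no common sign, so a higher amount per cell in mural cells as a whole was not shown. Between clusters 8 and 7 the spike-in scale moved the other way, from a log2 ratio of −0.68 ± 0.30 in CPM to −1.04 ± 0.17 per spike-in count (SD, n = 3 strains), and cluster 8 was lower in each strain on both scales. In cluster 6 against clusters 7 and 8 the mean changed from −0.61 ± 0.23 to 0.17 ± 0.42 (SD, n = 3 strains). Spike-in counts depend on the amount added to each well as well as on the RNA of the cell.

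**Figure D2:**
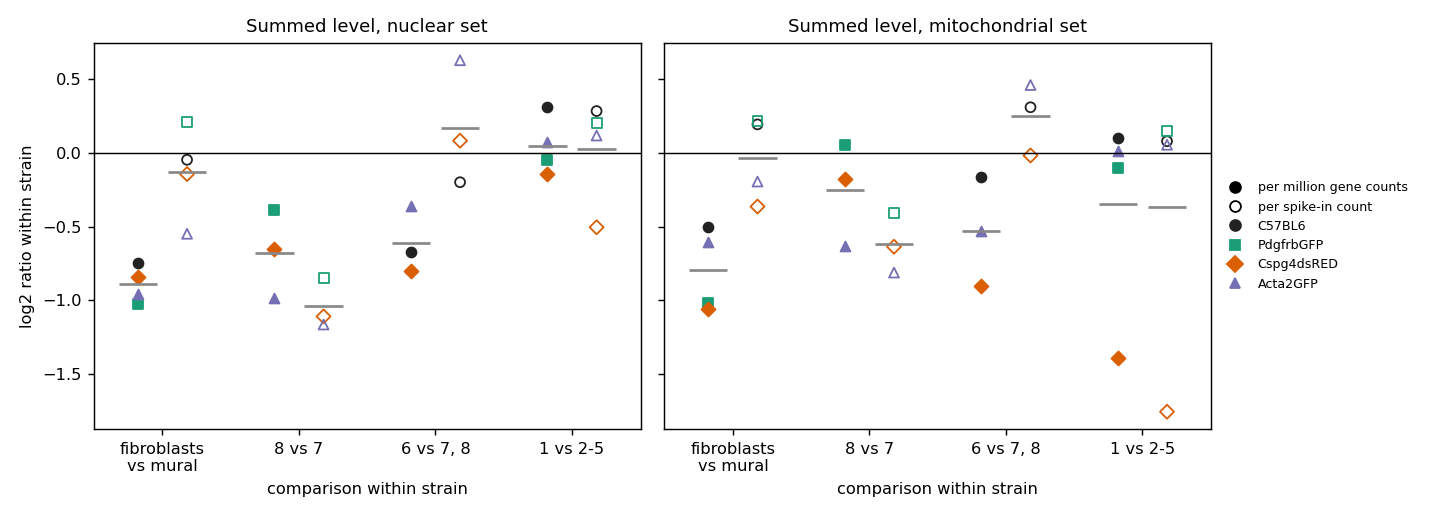
Log2 ratio of the summed level within each strain (symbols) for the 4 comparisons, in CPM (filled) and per spike-in count (open), with a grey bar at the mean, for the nuclear and the mitochondrial set. The fibroblast to mural difference of about −0.89 in the nuclear set falls to −0.13 per spike-in count, while that of cluster 8 to cluster 7 grows to −1.04.

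Gene by gene, relative to all gene counts, most members had lower values in fibroblasts than in mural cells. Of the 82 nuclear members tested, 7 fell in fibroblasts at an adjusted p under 0.05 (edgeR quasi-likelihood test with Benjamini-Hochberg adjustment over 15117 genes) and none rose, where 5.93% of all genes tested were called, 2.45% lower and 3.47% higher. The other 2, Cox7b2 and Cox8c, testis forms of complex IV subunits, had 5 counts and none. Log2 fold changes were below 0 for 79 of 82, against 51.1% of all genes, and their median was −0.71, against −0.02 for all genes. In 40 of 82 the 4 fibroblast sums lay below all 4 mural sums, which held for 5.63% of all genes, none lay above all 4 (9.06% of all genes), and 64 of 82 were lower in every strain, against 11.9% of all genes. With spike-in library sizes and strain as a replicate block, 34 of 82 were below 0, the median of the members was 0.06 against 0.97 for all genes, and 2 of the 7 calls were kept, Cox4i2 and Ndufa4l2, where 7.49% of all genes were called.

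By complex, complex III had the lowest median, −0.96, and the groups of 7 of its 8 members did not overlap. The medians of complexes I, II, IV and V were −0.70, −0.78, −0.79 and −0.63, and 16 of 35, 2 of 4, 7 of 18 and 8 of 17 members did not overlap. All 35 complex I members had a negative fold change, from −1.16 to −0.31, and none was called.

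Atp5b, the catalytic β subunit of the ATP synthase, had 773 (C57BL6), 902 (PdgfrbGFP), 890.1 (Cspg4dsRED) and 876 CPM (Acta2GFP) in fibroblasts. Its mural levels were 1729, 2054, 2112 and 1810 CPM. All mural sums were above all fibroblast sums, with a log2 fold change of −1.18 (SE 0.22, adjusted p = 0.012, edgeR). Atp5a1, the α subunit of the same catalytic head, had a log2 fold change of −0.88 (SE 0.25) and missed the threshold with an adjusted p of 0.073.

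Sdhc, a membrane anchor of complex II, had 189.5, 206.4, 135.2 and 162.3 CPM in fibroblasts in the same order of strains. Mural cells held 385, 457, 440 and 585 CPM. The groups were apart and the log2 fold change was −1.43 (SE 0.27, adjusted p = 0.0119, edgeR). Sdha and Sdhb, the catalytic subunits of complex II, had log2 fold changes of −0.53 (SE 0.29) and −0.59 (SE 0.29) and did not pass.

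In complex IV, Cox8a, the common form of subunit VIII, fell from 586 ± 138.99 CPM in mural cells to 240.1 ± 61.5 in fibroblasts (SD, n = 4 strains), with a fitted log2 difference of −1.31 (SE 0.31, adjusted p = 0.0331, edgeR). Cox5a fell from 207.9 ± 33.3 to 96.3 ± 15.7 CPM (SD, n = 4 strains), at −1.12 (SE 0.27, adjusted p = 0.0342, edgeR). In complex III, Uqcrc1, a core protein, fell from 607 ± 65.98 to 317 ± 45.5 CPM (SD, n = 4 strains), at −0.95 (SE 0.24, adjusted p = 0.043, edgeR). None of these 3 genes had overlapping groups. Their calls, and that of Atp5b, were lost whenever any 1 of the 4 strains was left out, with adjusted p up to 0.177. The call of Sdhc was lost without C57BL6 or without Acta2GFP, at up to 0.0892, and with spike-in library sizes and the replicate block, at a log2 fold change of −0.67 and an adjusted p of 0.256 (edgeR).

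Core subunits that were not called pointed the same way. Ndufs1 and Ndufv1 of complex I had log2 fold changes of −1.03 (SE 0.38) and −0.72 (SE 0.32), and Uqcrfs1, the Rieske protein of complex III, −1.09 (SE 0.30, adjusted p = 0.064, edgeR). Fibroblasts were below mural cells in all 4 strains for each of them. With strain as a replicate block, where 4.81% of all genes were called, 9 members were, the 7 above with Uqcrfs1 (adjusted p = 0.0395, edgeR) and Ndufs7. The exceptions among the 82 were Cox7a2l at 0.01, Ndufa4 at 0.20 and Atp5s at 0.71, none of which exceeded its standard error or was called.

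**Figure D3:**
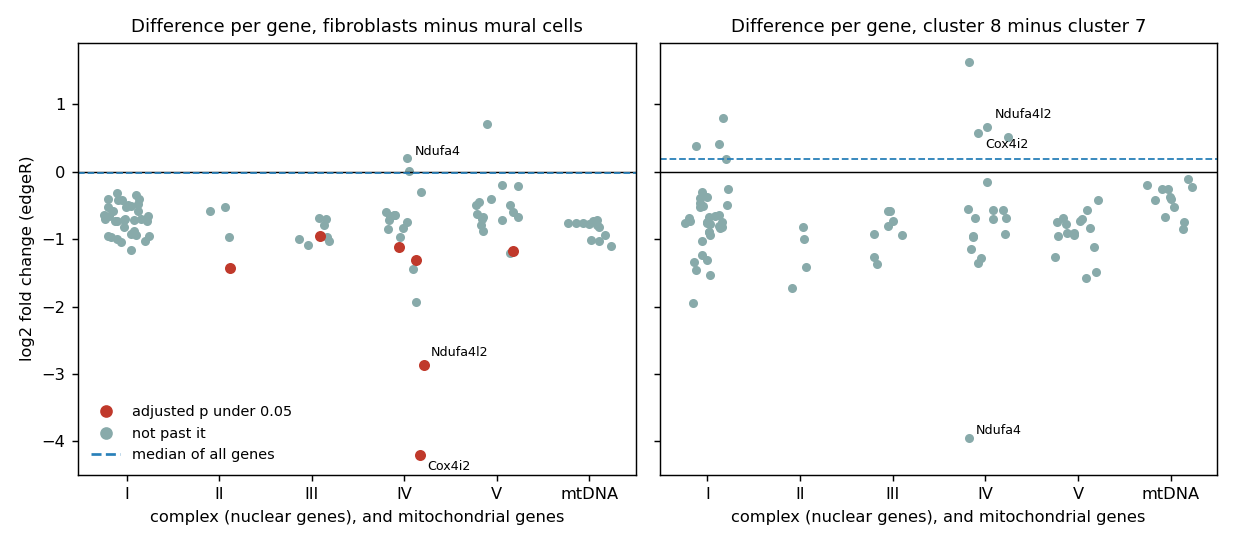
Log2 fold change of each tested member by complex, for fibroblasts minus mural cells (left) and cluster 8 minus cluster 7 (right), with the median of all genes as a dashed line and members past an adjusted p of 0.05 in red. Nearly all points lie below 0 in both panels, with Cox4i2 (−4.21) and Ndufa4l2 (−2.87) far below the others on the left and Ndufa4 (−3.95) on the right.

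Cox4i2 and Ndufa4l2 differed most. Cox4i2 had 54.3 (C57BL6), 31.4 (PdgfrbGFP), 47.9 (Cspg4dsRED) and 70.3 CPM (Acta2GFP) in fibroblasts, and 1338.5, 1516, 421 and 327 CPM in the mural cells. The gap between groups was wide in each strain, and the log2 fold change was −4.21 (SE 0.58, adjusted p = 0.00247, edgeR). It was the only member called without each strain in turn and in all 14 alternatives. Ndufa4l2 had 271.45 (C57BL6), 198.1 (PdgfrbGFP), 161.8 (Cspg4dsRED) and 164.7 CPM (Acta2GFP) in fibroblasts against 1938, 2595, 538 and 568 in mural cells, with a fitted log2 difference of −2.87 (SE 0.57, adjusted p = 0.0145, edgeR). Its call was lost without C57BL6 or without PdgfrbGFP, at an adjusted p of up to 0.0781. For both genes the mural sums of C57BL6 and PdgfrbGFP, which hold mostly cluster 8 cells, were higher than those of Cspg4dsRED and Acta2GFP, which hold mostly cluster 7 and 6 cells.

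Their standard counterparts were not called. Cox4i1 had 551 ± 167.4 CPM in fibroblasts and 827 ± 234.7 in mural cells (SD, n = 4 strains), with a fitted log2 difference of −0.60 (SE 0.34, adjusted p = 0.444, edgeR). Ndufa4 had 112.2 ± 33.1 and 99.6 ± 84.3 CPM, with overlapping groups. Per kilobase of exon, Ndufa4l2 and Cox4i2 ranked 1 and 2 of the 84 nuclear members in mural cells, at 1287 ± 936 and 1143 ± 779 CPM per kb (SD, n = 4 strains), and 10 and 50 in fibroblasts. Exon length joined all annotated exons of a gene, 1550 bases for Cox4i1 and 788 for Cox4i2. The transcripts that gave the coding sequences above have 745 and 727 bases, so the ranks depend on the length chosen.

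Ndufa4 was lowest in cluster 8. There it had 37.4 (C57BL6), 2.32 (PdgfrbGFP), 8.40 (Cspg4dsRED) and 28.2 CPM (Acta2GFP). Cluster 7 had 119.7 CPM in PdgfrbGFP, 244.5 in Cspg4dsRED and 234.8 in Acta2GFP, cluster 6 had 72.5 to 238.05, and the fibroblast clusters 41.96 to 200.96. The 4 cluster 8 sums were thus lower than every one of the other 23 sums with 3 cells or more, a pattern shown by 5 of 15117 genes (0.0331%) and by no other member. The nearest values were 37.4 CPM inside and 41.96 outside, the latter from 3 cluster 1 cells of Cspg4dsRED. Ndufa4l2 ran the opposite way and was highest in cluster 8, at 2199 (C57BL6), 2700.3 (PdgfrbGFP), 1402 (Cspg4dsRED) and 749.6 CPM (Acta2GFP), though its range there overlapped that of cluster 7 (539 to 1635).

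The tests between clusters 8 and 7 had 3 strains, since C57BL6 gave 1 cell of cluster 7. Ndufa4 had a log2 fold change of −3.95 (SE 1.12) and an adjusted p of 0.245 (edgeR), with cluster 8 lower in 3 of 3 strains and no overlap. DESeq2 called it, at 0.0113, and no other alternative did. Ndufa4l2 and Cox4i2 differed by 0.67 (SE 0.60) and 0.57 (SE 0.63) and were not called. Few genes passed in this comparison, 23 of 11867 (0.194%), with 0.0843% higher and 0.11% lower in cluster 8.

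Shares of cells followed the same order. Ndufa4 had at least 1 count in 32.7% of cluster 8 cells and in 90.7% of cluster 7 cells. With each cell thinned to 50000 counts the shares were 13.3% (95% Wilson interval 9.26 to 18.8) and 85.5% (77.96 to 90.7). The interval treats the cells of a cluster, strains pooled, as independent and leaves out the spread between strains. Counts are of reads, since the library carried no molecular identifiers. By strain the thinned share in cluster 8 was 21.2% (C57BL6), 8.47% (PdgfrbGFP), 6.90% (Cspg4dsRED) and 46.7% (Acta2GFP). Each of these lay outside the pooled interval of 9.26 to 18.8. The cluster 8 sum of Acta2GFP stood apart in its markers, with fibroblast markers at 3334 CPM (959.5 to 1370 in the other strains), smooth muscle markers at 4033 (201.1 to 1170) and pericyte markers at 6942 (18865 to 23596), and it had the lowest nuclear level of cluster 8. In cluster 7 it was 93.2% in Cspg4dsRED and 84.8% in Acta2GFP but 33.3% of 9 cells in PdgfrbGFP. These 9 cells also had the highest pericyte (8974 CPM), endothelial (640.3) and immune (184.5) marker sums and the highest nuclear level of cluster 7 among strains with 3 cells or more, and the part of this in the result was not tested. In cluster 8, 64 cells had counts of both genes, none had Ndufa4 alone, and all others had Ndufa4l2 alone.

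As a share of the pair per exon length, Ndufa4l2 made up 98.8 ± 1.3% in cluster 8 (SD, n = 4 strains), 80.9 ± 11.8% in cluster 7 and 26.9 ± 39.8% in cluster 6 (SD, n = 3 strains each). The cluster 6 value rests on the 3 cells of C57BL6, at 72.8%, and was 1.9 and 5.9% in the other strains. In fibroblasts it made up 40.8 ± 21.9% in cluster 1, 78.2 ± 3.7% in cluster 2, 75.4 ± 9.9% in cluster 3, 55.8 ± 4.4% in cluster 4 and 68.1 ± 4.5% in cluster 5. The lowest strain of cluster 8 was at 97.1%, above the highest strain of every other cluster, which was 94.5% in cluster 7. The lengths join all annotated exons, 1381 bases for Ndufa4 and 1095 for Ndufa4l2. The transcripts of the coding sequences above have 610 and 934 bases. With transcript lengths the shares of Ndufa4l2 would be smaller, so which gene is the larger is not read. The order of the sums does not depend on the lengths. The share of Cox4i2 in its pair was 71.9 ± 10.5% in cluster 8 and 54.5 ± 3.7% in cluster 7. It was 40.8 ± 18.4% in cluster 1, 33.6 ± 9.7% in cluster 3, 8.9 ± 4.6% in cluster 2, 4.6 ± 2.2% in cluster 4, 3.3 ± 1.0% in cluster 5 and 4.5 ± 5.8% in cluster 6. For this pair the joined exons have 1550 (Cox4i1) and 788 bases (Cox4i2), and the transcripts 745 and 727. With transcript lengths the share of Cox4i2 would be smaller, so which gene of the pair is the larger is not read.

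**Figure D4:**
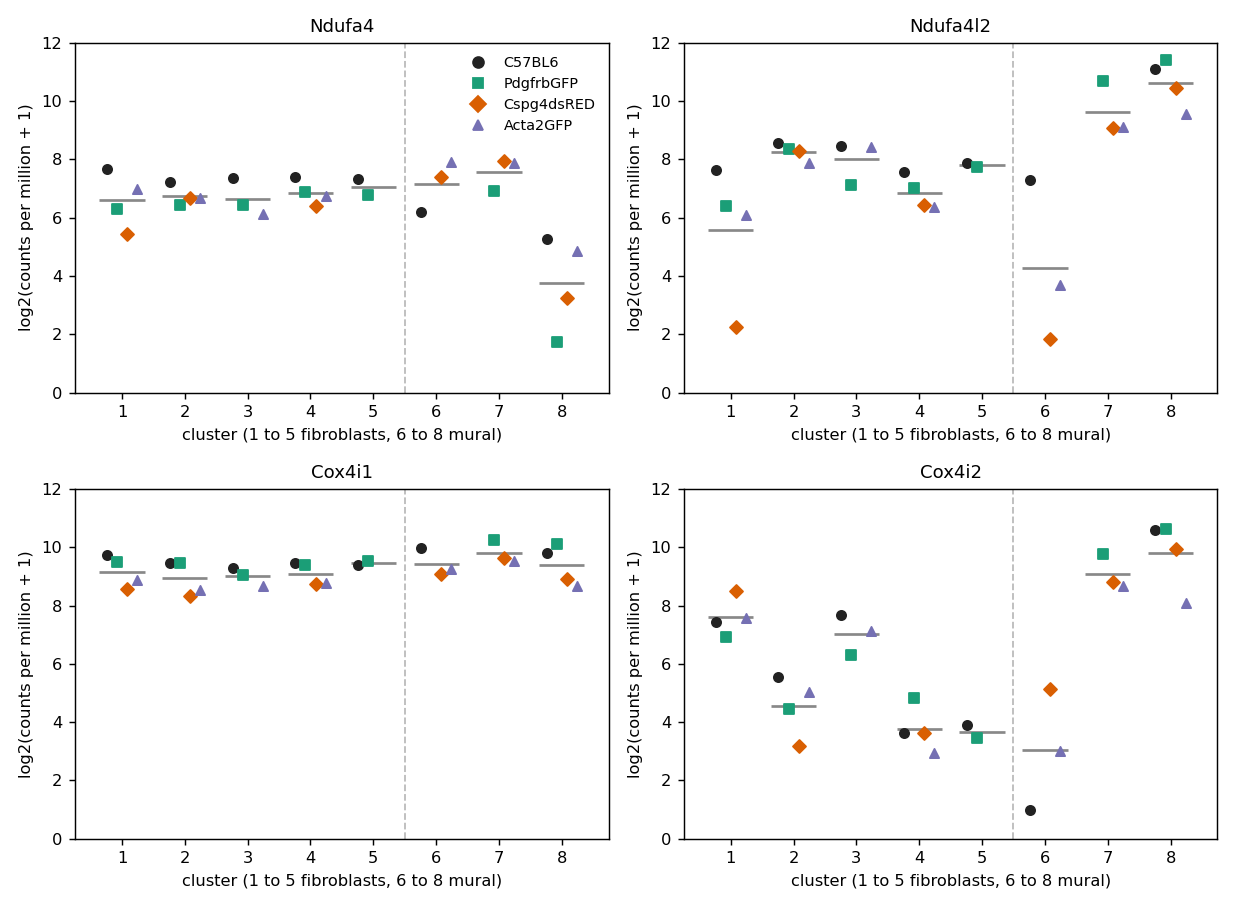
Level of Ndufa4, Ndufa4l2, Cox4i1 and Cox4i2 as log2(CPM + 1) by cluster and strain (symbols, 3 cells or more), with a grey bar at the mean. Ndufa4 is lowest in cluster 8 (2.32 to 37.4 CPM) where Ndufa4l2 is highest (749.6 to 2700.3), and Cox4i2 is high in clusters 7 and 8, intermediate in clusters 1 and 3 and low elsewhere, while Cox4i1 overlaps across clusters.

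Nuclear members as a whole were mostly at lower values in cluster 8 than in cluster 7, but, Ndufa4 included, none was called. Log2 fold changes were below 0 for 73 of 81 (median −0.76), while 44.8% of all genes were below 0 and their median was 0.18. In 31 of 81 the groups did not overlap with cluster 8 below, against 5.91% of all genes, and in 1, Cox6a2, cluster 8 lay above, against 9.08%. The 56 of 81 that were lower in every strain compare with 11.8% of all genes. At an unadjusted p under 0.05 there were 7 of 81 members and 6.88% of all genes, and DESeq2 called 1 of 81 members and 3.2% of all genes. Atp5a1 had 743 ± 254.96 CPM in cluster 8 and 1925 ± 414 in cluster 7 (SD, n = 3 strains), with a fitted log2 difference of −1.49 (SE 0.43). Its adjusted p was 0.264 in edgeR, and 0.0403 with strain as a replicate block, where 0.691% of all genes were called and it was the only member among them. Sdha missed the threshold (adjusted p = 0.862, edgeR) at 421 ± 30.8 against 703 ± 15.9 CPM (SD, n = 3 strains), without overlap. The 5 fibroblast markers each had a higher mean over strains in cluster 8 than in cluster 7, from Lum (62.5 against 53.5 CPM) to Col1a1 (515.8 against 45.7). Their part in these differences was not tested.

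Both alternative forms were low in cluster 6. Cox4i2 had 0.98 CPM in C57BL6, 33.96 in Cspg4dsRED and 7.02 in Acta2GFP cells of cluster 6, and 1518, 592 and 358 in clusters 7 and 8 together. Ndufa4l2 had 153.8, 2.59 and 11.9 CPM in cluster 6 and 2177, 773 and 623 in clusters 7 and 8. Log2 fold changes against clusters 7 and 8 were −5.74 (SE 1.15) for Cox4i2 and −4.46 (SE 1.20) for Ndufa4l2, with adjusted p of 0.16 and 0.406 (edgeR), and both passed with strain as a replicate block, at log2 fold changes of −6.07 and −5.74 and adjusted p of 8.099e-08 and 5.073e-11 (edgeR). No nuclear member was called in the fit without the block, where 0.033% of 12117 genes were. Of 82 members 3 had an unadjusted p under 0.05 (5.74% of all genes) and DESeq2 called 1 (2.81%), and the block called 0.883% of all genes. Both also passed without Acta2GFP (0.495% of all genes called) and with no filter on low counts (0.418%). C57BL6 and Acta2GFP gave 3 cells each. Fibroblast markers summed to 12491 (C57BL6), 3223 (Cspg4dsRED) and 3108 CPM (Acta2GFP) in cluster 6 and to 308.65 to 776.5 in cluster 7, and their part in these levels was not tested. The median of the nuclear set and that of all genes were both −0.32. Log2 fold changes were below 0 for 65 of 82 (58.2% of all genes), 21 lay below without overlap (14.4%) and 35 were lower in every strain (28.8%). The count below 0 was 48 of 82 with DESeq2 size factors (median −0.09, −0.17 for all genes). With spike-in library sizes and the block it was 30 of 82 (median 0.18, −0.36 for all genes), and without Acta2GFP 70 of 82 (median −0.67, −0.50 for all genes).

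Among fibroblasts, Cox4i2 was higher in cluster 1 than in clusters 2 to 5, a call that several alternatives ended. Cluster 1 had 170.7 (C57BL6), 121.4 (PdgfrbGFP), 360.3 (Cspg4dsRED) and 191.004 CPM (Acta2GFP), and clusters 2 to 5 together had 32.1 ± 13.99 (SD, n = 4 strains). The groups did not overlap and the log2 fold change was 2.69 (SE 0.47, adjusted p = 0.0202, edgeR), the only call among 82 nuclear members, where 1.33% of all genes were called, 0.561% higher and 0.773% lower. The call was lost with strain as a replicate block (adjusted p = 0.067, edgeR), with sums of at least 10 cells and without any 1 of the 4 strains, when the adjusted p reached 0.165. Mural markers moved with it. The 5 mural markers summed to 151.3 (C57BL6), 125.5 (PdgfrbGFP), 397.4 (Cspg4dsRED) and 729.8 CPM (Acta2GFP) in cluster 1, against 63.6, 70.6, 210.2 and 120.1 in clusters 2 to 5, and the pericyte markers were also higher in 4 of 4 strains (162.9 to 848.9 against 100.5 to 154.3 CPM). Their part in the difference was not tested. Uqcrfs1 had 52.3 ± 27.1 CPM in cluster 1 and 120.3 ± 24.9 in clusters 2 to 5 (SD, n = 4 strains) without overlap, at an adjusted p of 0.561 (edgeR). The median over the nuclear members was 0.12, against −0.03 for all genes, and 30 of 82 were below 0, against 51.5%. Without C57BL6 the median was −0.07 (−0.10 for all genes) with 44 of 81 below 0, and without any other 1 strain it was 0.10 to 0.20. With strain as a replicate block it was 0.01 (−0.47 for all genes) with 40 of 82 below 0. Those 2 genes were the only members without overlap, where 2.61% of all genes lay above and 6.76% below.

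Among clusters 2 to 5, cluster 3 held Cox4i2 at 201.03 (C57BL6), 78.2 (PdgfrbGFP) and 138.3 CPM (Acta2GFP), above all sums of cluster 2 (8.12 to 45.6), cluster 4 (6.66 to 27.7) and cluster 5 (9.93 to 13.96). The pericyte markers had the same order, at 238.6, 258.6 and 321.9 CPM in cluster 3, above all sums of cluster 2 (26.3 to 195.2), cluster 4 (73.6 to 147.9) and cluster 5 (68.6 to 127.7), and smooth muscle markers in cluster 3 were at 75.2, 948.2 and 1447 CPM. Their part in the level of Cox4i2 was not tested. The test for any difference gave it an unadjusted p of 0.000883 and an adjusted p of 0.135 (edgeR). No member of 82 nuclear and 12 mitochondrial was called in that test, where 0.301% of 16629 genes were. Of the nuclear members 2 had an unadjusted p under 0.05 (8.02% of all genes) and DESeq2 called 2, Cox4i2 and Ndufa4l2 (2.77% of all genes). Ndufa4l2 was at 232.3 to 377 CPM in cluster 2 and at 81.9 to 187.9 in cluster 4. This pair of clusters was not tested on its own, and no share of all genes was taken for it.

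The muscle forms were near the limit of detection. Cox6a2 had 2.94 ± 2.34 CPM in fibroblasts and 7.65 ± 2.63 in mural cells (SD, n = 4 strains), Cox7a1 7.60 ± 7.30 and 12.4 ± 6.68, and Cox8b 0.80 ± 0.92 and 3.15 ± 2.38. None was called in any comparison. In the same order, the common form Cox6a1 was at 306 ± 72.1 and 545 ± 134.7 CPM, Cox7a2 at 113.3 ± 31.5 and 220.1 ± 45.96 and Cox8a at the levels given above. The other paralogues, Cox6b1, Cox7b and the 3 genes of the membrane ring of the ATP synthase (Atp5g1, Atp5g2, Atp5g3), were not called in any comparison, and the highest mean of Cox6b2 was 12.7 CPM in cluster 1. Atp5g2 shares 36.7% of its windows with other genes, so its level is uncertain.

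Cardiac muscle markers moved with the nuclear set. All 11 markers were detected in mural cells and in fibroblasts, and their sum was 34.9 to 179.8 CPM in fibroblasts and 402 to 1088 in mural cells. Pln, which smooth muscle also expresses, gave 347 of 751 CPM of the mural mean. Without Pln the sum was 32.02 to 170.8 and 303 to 502 CPM. In cells without a single count of Myh6, Tnnt2, Tnni3, Myl2 and Myl3 (615 cells), the log2 ratio of the nuclear set between fibroblasts and mural cells was −0.95 ± 0.19, and −0.87 ± 0.14 in all cells of the same strains (SD, n = 3 strains). Among mural clusters the sum of the 11 markers was 1373 to 2034 CPM in cluster 7 and 265.2 to 501.9 in cluster 8, and without Pln 287.3 to 758.5 and 252.6 to 431.6. In cluster 6 it was 3.9 (C57BL6), 779 (Cspg4dsRED) and 1541 CPM (Acta2GFP), and of the mean of 774.6 CPM, Tnnt2 gave 356.4, Actc1, which smooth muscle can also express, 345.001 and Pln 17.6. In cells without counts of the 5 genes the difference of cluster 8 and cluster 7 was −0.45 ± 0.29, and −0.52 ± 0.18 in all cells of the same strains (SD, n = 2 strains). Most of the 11 markers also had higher means in cluster 1 than in clusters 2 to 5, among them Tnnt2 (67.9 against 7.0 CPM) and Tnni3 (27.6 against 9.2). Ttn and Nppa were lower there. Their part in the levels of cluster 1 was not tested.

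The mitochondrial set followed the nuclear set in the main comparison. Fibroblasts held 10321 (C57BL6), 9508 (PdgfrbGFP), 6645 (Cspg4dsRED) and 7136 CPM (Acta2GFP), and mural cells 14636, 19306, 13877 and 10830. Mural cells were higher in each strain, with no overlap, and the log2 ratio was −0.80 ± 0.29 (SD, n = 4 strains). It was −0.60 ± 0.23 among cells with 150000 to 300000 counts and −0.04 ± 0.29 per spike-in count. No mitochondrial gene of 12 tested was called in edgeR, 6 had an unadjusted p under 0.05 (17% of all genes), and DESeq2 called 4 (12.7% of all genes). All 12 fold changes were negative, with a median of −0.78, and 4 of 12 did not overlap, with fibroblasts below (5.63% of all genes). They were mt-Nd2, mt-Nd4, mt-Nd5 and mt-Nd6, of which mt-Nd5 came closest, at −1.01 (SE 0.27, adjusted p = 0.054, edgeR). With cells of plates with mural cells only, mt-Nd5 was called (adjusted p = 0.0445, edgeR), where 5.87% of all genes were.

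Between clusters 7 and 8 the mitochondrial set was lower in cluster 8 in 2 of 3 strains. Cluster 7 held 18668 (PdgfrbGFP), 16702 (Cspg4dsRED) and 12770 CPM (Acta2GFP), and cluster 8 held 19377, 14769 and 8223. The log2 ratio was −0.25 ± 0.35 (SD, n = 3 strains), against −0.68 ± 0.30 for the nuclear set. The difference between these 2 ratios was not tested. Cluster 8 was lower in 3 of 3 strains per spike-in count (−0.62 ± 0.20), among cells with 150000 to 300000 counts (−0.35 ± 0.29) and with counts corrected for at most 1 read per start position and strand (−0.31 ± 0.36; SD, n = 3 strains each). All 12 genes tested had a negative fold change, with a median of −0.38 against 0.18 for all genes, of which 44.8% were below 0. None was called in edgeR or DESeq2, and none had an unadjusted p under 0.05. In cluster 1 the set ran from 2657 CPM in Cspg4dsRED, with 3 cells, to 11067 in C57BL6.

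The nuclear and mitochondrial shares of single cells were related unevenly. Spearman correlations over the cells of a cluster, strains pooled, ran from 0.19 (cluster 2) to 0.59 (cluster 1), as a description over cells that share libraries and a common total. Within a strain (22 cells or more) they ran from −0.16 in PdgfrbGFP of cluster 2 to 0.56 in Acta2GFP of cluster 1, with 0.05 in C57BL6 of cluster 2 and 0.08 in PdgfrbGFP of cluster 8. The mitochondrial share fell with depth in every cluster, with correlations of −0.73 to −0.28 with total counts, and that of the nuclear share ran from −0.35 to 0.29. C57BL6 had a pair of large plates, of which the shallower held fibroblasts only. Without the cells of plates that lack mural cells, the fibroblast to mural log2 ratio was −0.88 ± 0.15 for the nuclear and −0.81 ± 0.27 for the mitochondrial set (SD, n = 4 strains), and the 7 nuclear calls were kept. In each of clusters 1 to 5 one of them was higher in the nuclear set (14442 to 17838 against 12514 to 15675 CPM) and lower in the mitochondrial set (9353 to 11047 against 10081 to 11830 CPM), and it was the deeper one in clusters 2 to 5.

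Mitochondrial counts had limits of their own. Over all cells mt-Cytb had 1103221 counts, mt-Nd1 773578 and mt-Atp8 168519, whereas mt-Co2, a core subunit of complex IV from the same polycistronic transcript, had 22 counts in 1279 cells. All 50-base windows of mt-Co2 also occur in another annotated gene, 99.5% of them in Gm28661, an unprocessed pseudogene on chr1:24614885-24615565. One such window, of 50 bases of the mt-Co2 coding sequence, is identical in both.
mt-Co2 and Gm28661: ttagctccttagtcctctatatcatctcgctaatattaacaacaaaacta
Gm28661 itself had 2 counts. Nuclear pseudogenes of the same kind cover mt-Co3 (99.9% of windows, 732 counts), mt-Atp6 (99.5%, 48131 counts), mt-Nd4l (98.8%, 646 counts) and mt-Nd3 (97.99%, 1610 counts), and they cover 62.2% of the windows of mt-Nd4 and 51.1% of those of mt-Co1. How reads with more than 1 match were counted is not given in the sources used here, so no level is read for the first 5. Over the 6 genes with under 10% of shared windows the fibroblast to mural log2 ratio was −0.81 ± 0.29 (SD, n = 4 strains), close to that of all 13.

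**Figure D5:**
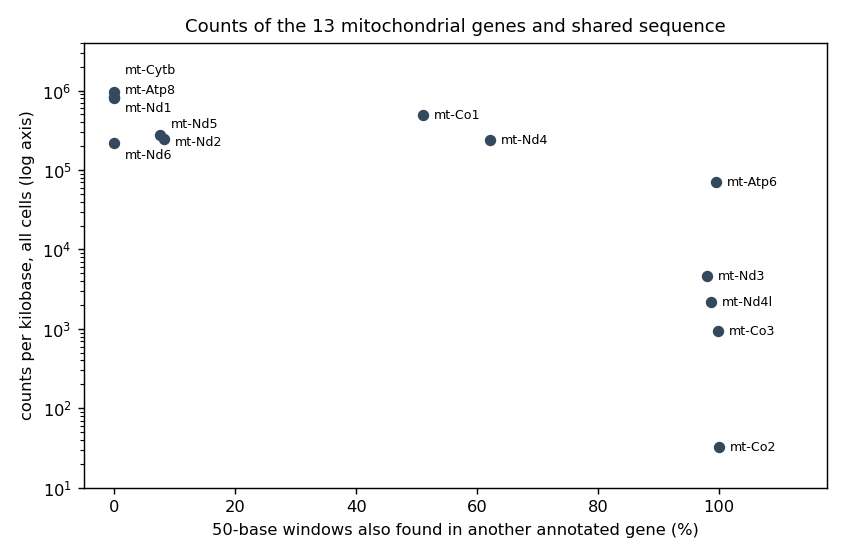
Counts per kilobase over all cells (log axis) of the 13 mitochondrial genes against the percentage of their 50-base windows that occur in another annotated gene. The 5 genes with about 98 to 100% of shared windows lie below all others, down to 22 counts in all for mt-Co2.

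A second limit was the range of the counts. Over 28713 genes with a known length, no cell had more than 1.93 counts per exon base of any gene, and 45 genes passed 1. The highest values of mt-Cytb and mt-Nd1 were 1.59 and 1.48. The methods name a removal of doublets with samtools without saying whether reads of the same start position are meant. If they are, counts could not pass 2 per base, and the levels of the most abundant mitochondrial genes would be too low in deep cells. With the corrected counts, the difference of the mitochondrial set was −0.83 ± 0.28 (SD, n = 4 strains), and 1 mitochondrial gene was called, where 5.89% of all genes were.

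Genes around the chain moved in part with it. Of 10 electron carriers and related enzymes, Cycs and Cyc1, the cytochromes c and c1 (the latter a part of complex III that the symbols did not match), fell in fibroblasts, from 113.4 ± 16.5 to 40.01 ± 7.42 CPM and from 327 ± 47.1 to 108.9 ± 22.8 (SD, n = 4 strains), and 9 of 10 had negative fold changes. Over all genes 2.45% were called lower, 51.1% were below 0 and the median was −0.02. Of 17 enzymes of the citrate cycle and pyruvate dehydrogenase, 5 fell (Fh1, Idh3b, Pdhb, Sucla2, Idh3g), all 17 fold changes were negative and the median was −0.84. Glycolysis showed 4 of 16 lower (Tpi1, Ldhb, Aldoa, Pfkl) with a median of −0.72. Of 9 genes for ADP and ATP exchange and uncoupling, Slc25a5, an ADP/ATP carrier, fell from 435 ± 39.9 to 114.3 ± 16.9 CPM (SD, n = 4 strains) and Atpif1, the inhibitor of the ATP synthase, from 271.2 ± 31.5 to 114.99 ± 31.3.

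None of 47 assembly factors and none of 20 genes for mitochondrial biogenesis and mitochondrial gene expression was called between fibroblasts and mural cells, where 5.93% of all genes were. Their medians were −0.24 and −0.13, and 33 of 47 and 10 of 20 were below 0. Of 15 hypoxia response genes, 3 fell in fibroblasts, Epas1 (102.4 ± 56.1 against 619 ± 199.5 CPM), which encodes the oxygen-regulated factor HIF-2α, Higd1b (2.66 ± 2.16 against 658 ± 436), a relative of a complex IV assembly factor, and Ankrd37 (2.33 ± 2.13 against 33.8 ± 15.2; SD, n = 4 strains each). The median of that list was −0.03, near that of all genes. No gene of any of the 7 lists was called between clusters 8 and 7, in cluster 6 or among clusters 2 to 5. Over all genes 0.194%, 0.033% and 0.301% were called in these comparisons. In cluster 1, 1 list gene, Mterf1a, was called lower, where 0.773% of all genes were.

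Promoters of 66 of the 84 nuclear members were matched in RefSeq (GRCm38.p6, 250 bases before to 50 after the start). The palindromic motif of the respiratory regulator NRF1 occurred on either strand in 5 of 66 (7.6%) and in 1.1% of all 27025 genes. The ETS motif CCGGAAG, which GABP also recognises, occurred in 16 (24.2%) and 9.9%. The core letters of hypoxia response elements, ACGTG or GCGTG, occurred in 43 (65.2%) and 46.7%. A match is a description of the letters in these windows and does not show a site in use. Ndufa4l2, Cox4i1 and Cox4i2 were not among the 66.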

How the data were processed

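The authors sorted heart cells into plates, made Smart-seq2 libraries with ERCC spike-ins, read 50 bases from one end, trimmed with Trim Galore, aligned to GRCm38 with TopHat2, removed what the methods call doublets with samtools and counted with featureCounts. The deposited values are raw counts per gene for 1279 cells. The annotation release and the strand setting are not given in the sources used here. The authors had already removed cells of low quality and cells with endothelial or immune signatures. Their cluster numbers came from the same counts, so members may have helped to define the clusters. Members and lists were chosen with earlier results of these data known.

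Counts were summed per strain and cluster group (at least 3 cells), spike-ins (1.825% of counts) left out, and tested with edgeR 4.0.16 in R 4.3.3: TMM scaling, filterByExpr with a minimum count of 10, quasi-likelihood F test, Benjamini-Hochberg adjustment over all genes at 0.05. The 4 strains served as replicates, and p-values measure the spread between these sums only. There were 5 comparisons, the last a test with 3 degrees of freedom, and 14 alternatives, among them DESeq2 1.42.0 and limma 3.58.1. Standard errors were derived from the F statistic. Same-strain sums share sort and, in PdgfrbGFP, Cspg4dsRED and Acta2GFP, 1 plate, whereas 1 of the large C57BL6 plates held fibroblasts only. Deviations of same-strain sums correlated at 0.02 to 0.19. Positions, lengths and 50-base windows came from GENCODE M21, which matched 46005 of 46517 genes. Named genes were the paralogues, core subunits and mitochondrial genes, and the called members of each comparison (all up to 10, otherwise the 5 with the largest change in each direction). List genes were named where called, and Ndufs7 and Atp5s after their values were seen. The scripts were tested on simulated counts. Cells were thinned to 50000 counts for shares of cells (Wilson interval, 95%). Alternatives chosen after seeing the data were corrected counts, a depth band, mitochondrial genes with unique windows, cells without cardiomyocyte counts and cells of plates with mural cells.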

Additional observations from a re-analysis of the deposited data

How the results depend on the processing

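Between fibroblasts and mural cells, 7 nuclear members were called. The number was 12 with DESeq2 size factors in edgeR, 38 in DESeq2, 28 with mean CPM over cells in limma, 4 with no filter on low counts, 2 with spike-in library sizes and strain as replicate block, and 1 to 3 without any 1 strain (1 without C57BL6, 3 without Cspg4dsRED). Over all genes tested, 896 were called, and 907, 1926, 1394, 747 and 1133 in the first 5 of these alternatives, and 409 to 605 without any 1 strain. Mitochondrial calls went from 0 to 3 with DESeq2 size factors, 4 in DESeq2, 4 in limma, 1 with corrected counts and 1 with cells of plates with mural cells only. The replicate block alone moved the median of all genes to 0.20, and spike-in library sizes with the block moved it to 0.97, where 34 of 82 nuclear members were below 0. Between clusters 8 and 7 nuclear calls went from 0 to 1 in DESeq2, 1 with strain as replicate block and 1 with spike-in sizes and the block (0.514% of all genes). For cluster 6 they went from 0 to 1 in DESeq2, 2 with no filter, 2 with the replicate block, 1 with spike-in sizes and the block (0.586% of all genes), and 0 to 2 without any 1 strain (2 without Acta2GFP). For cluster 1 the 1 call became 0 with the replicate block, 0 with spike-in sizes and the block, 0 with at least 10 cells and 0 without any 1 strain. Among clusters 2 to 5 DESeq2 called 2. Per spike-in count the mean log2 ratios of summed levels were −0.13 (nuclear) and −0.037 (mitochondrial) for fibroblasts against mural cells, −1.04 and −0.62 for cluster 8 against 7, and 0.17 and 0.25 for cluster 6. In CPM the mitochondrial ratio of cluster 6 to clusters 7 and 8 was −0.53, below 0 in 3 of 3 strains. In cells without cardiomyocyte counts the mitochondrial ratio of fibroblasts to mural cells was −1.12 (−0.86 in all cells of the same 3 strains), with −1.90 in Cspg4dsRED and −0.49 and −0.95 in the others, and the nuclear ratio of cluster 1 to clusters 2 to 5 was 0.27 (0.11 in all cells of the same strains). The cause of these shifts was not tested. Of 2356 values of the paralogues, core subunits, mitochondrial genes and called members under the alternatives (other members that only an alternative called are not among them), 2283 kept their side of the threshold, 38 were newly called, 35 lost their call, no called value changed sign, and 4.92% of the values, called in neither fit, did. Among the members, the pairing by strain changed no other call than those given here and in the report. Calls of list genes are given for the main fit only. For cluster 6 a minimum of 10 cells left 1 strain and gave no value. Cluster 6 sums of 3 cells and counts shared with pseudogenes limit what can be read.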
